A study of Rattus norvegicus with 16 samples.

Results

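Peroxisome growth and peroxisomal oxidation were followed in isolated rat pancreatic islets through 7 genes: Pex11a, Ehhadh, Acaa1a, Hsd17b4, Cat, Eci2 and Crat. All probe sets that the array's annotation assigns to these symbols were taken, which gave 9 of the 15923 probe sets on the array. Of the 9, 7 named 1 gene and 2 named a pair of genes: 1387783_a_at (Acaa1b and Acaa1a) and 1372765_a_at (Eci3 and Eci2). Acaa1a was read by the shared probe set alone, so its signal cannot be told apart from that of Acaa1b. Expression was measured in a 2 by 2 design. All islets were exposed to an adenovirus at 50 viral particles per cell for 32 h, either a null virus or a virus encoding PPARγ (peroxisome proliferator-activated receptor gamma, a ligand-activated nuclear receptor). They were then kept for 16 h in 0.004% DMSO, called vehicle here, or in 200 nM of the PPARγ agonist GW347845, called compound here. All groups used here thus carried a virus, and the sources used here give neither the promoter and species of the PPARγ transgene nor the age and strain of the rats. The labels do not say whether replicates came from separate islet preparations, so p-values measure the spread between these arrays, which may be technical.

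Of 16 deposited columns, 14 were used: replicates 1, 3 and 4 of each null virus group (n = 3 in vehicle and 3 in compound) and replicates 1 to 4 of each PPARγ virus group (n = 4 and 4). The columns labelled replicate 2 of the null virus groups were identical in all 15923 probe sets, which leaves the condition of that array unsettled, and they were left out. Values are intensities on a linear scale that the authors had scaled to a common trimmed mean, with array medians of 56.4 to 67.5 and no detection calls. The labelled tissue was checked by its insulin genes, with Ins1 between 4626.9 and 7093.1 and Ins2 between 3313.5 and 4421.2 over the arrays used. The probe set of Pparg read 25.6 to 51.4 in the null virus arrays and 4593.4 to 6199.1 in the PPARγ virus arrays, so each array matched its virus label. Summed markers of non-beta hormone cells (5 of 6 listed genes on the array, Gcg among them) separated the PPARγ virus arrays by replicate number. They summed to 8916 and 10264 in vehicle replicates 1 and 3 against 1013 and 2479 in replicates 2 and 4, and to 8985 and 9406 in compound replicates 1 and 3 against 495 and 2363 in replicates 2 and 4. The null virus arrays summed to 4630 to 9288. These sums were weighted to genes of high intensity, with medians of 3080.6 for Gcg and 1906.7 for Ppy against 255.1 for Sst. The 5 genes did not move together. With vehicle, Gcg, Ppy and Pyy were lower under the PPARγ virus than under the null virus (log2 change -0.79, -0.97 and -0.73). Sst and Ttr were higher (0.69 and 0.93), and none of the 5 passed the test described below.

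Peroxisomes are small organelles bounded by a single membrane that shorten very long chain and branched fatty acids and detoxify the hydrogen peroxide that their oxidases release. Pex11a belongs to the PEX11 proteins, which elongate the peroxisomal membrane before it divides. In the beta-oxidation cycle of the matrix, the bifunctional proteins encoded by Ehhadh and Hsd17b4 carry out the hydration and dehydrogenation steps, and the thiolase encoded by Acaa1a releases acetyl-CoA. Eci2 is an enoyl-CoA isomerase that moves the double bonds of unsaturated fatty acids, Cat is catalase, which breaks down hydrogen peroxide, and Crat is carnitine acetyltransferase, which exchanges short acyl groups between CoA and carnitine in peroxisomes and mitochondria. Beta cells are known for low catalase activity relative to liver. In rodent liver, agonists of the related receptor PPARα raise many of these genes together, and PPARs bind as dimers with the retinoid X receptor to direct repeats of a hexamer separated by a single base.

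Promoters are shown for the genes with the 3 highest combined changes (Ehhadh, Pex11a and Eci2), and for Cat, which passed in no contrast and held 1 of the 2 closest matches to such a repeat. Each is the RefSeq sequence of 300 bases on GRCr8, from 250 bases before to 50 after the annotated gene start, written 5′ to 3′ on the strand of the gene. Capitals mark the best match to the repeat AGGTCANAGGTCA where it had at most 3 mismatches (on either strand, N not counted), and any hexamer AGGTCA or its reverse complement TGACCT. The sequences are in lower case elsewhere.
Pex11a promoter, chr1:143096442-143096741 (minus strand): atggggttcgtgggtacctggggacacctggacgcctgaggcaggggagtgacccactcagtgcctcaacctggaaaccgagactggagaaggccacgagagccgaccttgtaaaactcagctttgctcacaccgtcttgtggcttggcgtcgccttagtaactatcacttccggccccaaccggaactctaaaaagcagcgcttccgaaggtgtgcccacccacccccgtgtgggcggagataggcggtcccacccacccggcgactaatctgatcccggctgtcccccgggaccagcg
Ehhadh promoter, chr11:92746159-92746458 (plus strand): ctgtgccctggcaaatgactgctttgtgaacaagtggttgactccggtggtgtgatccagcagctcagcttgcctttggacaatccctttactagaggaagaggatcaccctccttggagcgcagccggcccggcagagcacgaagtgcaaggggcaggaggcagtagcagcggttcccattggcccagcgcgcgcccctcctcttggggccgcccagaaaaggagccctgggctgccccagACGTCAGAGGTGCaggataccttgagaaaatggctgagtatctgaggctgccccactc
Eci2 promoter, chr17:30075516-30075815 (plus strand): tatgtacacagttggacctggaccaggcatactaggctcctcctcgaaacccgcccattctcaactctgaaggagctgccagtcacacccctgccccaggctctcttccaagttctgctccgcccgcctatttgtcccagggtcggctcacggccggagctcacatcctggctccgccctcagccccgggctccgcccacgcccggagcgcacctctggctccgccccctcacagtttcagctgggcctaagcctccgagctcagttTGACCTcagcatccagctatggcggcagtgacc
Cat promoter, chr3:110329477-110329776 (minus strand): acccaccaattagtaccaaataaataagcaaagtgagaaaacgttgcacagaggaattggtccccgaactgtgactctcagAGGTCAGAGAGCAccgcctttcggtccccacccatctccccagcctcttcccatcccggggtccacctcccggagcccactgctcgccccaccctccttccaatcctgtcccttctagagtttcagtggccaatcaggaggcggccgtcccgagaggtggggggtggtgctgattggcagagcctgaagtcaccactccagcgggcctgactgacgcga
A stretch with at most 3 mismatches occurred in 24.9% of 33469 rat promoters of the same length, one with at most 2 in 3.77%, and an exact repeat in 0.0538%. All 7 genes had a promoter in the table. The best stretch had 2 mismatches in Cat (AGGTCAGAGAGCA, starting 169 bases before the gene start) and in Crat (AGGACACCGGTCA, 223 bases before), and 3 in Ehhadh (ACGTCAGAGGTGC, 8 bases before). Eci2, Acaa1a and Hsd17b4 had no stretch with under 4 mismatches, and Pex11a none with under 5. The hexamer occurred in the windows of Cat, Eci2 and Hsd17b4, against 16.2% of all promoters, and in the window of Cat it overlaps the marked repeat. These letter matches describe the window alone: the 2 genes that passed the test below held no such hexamer in it, and binding was not measured.

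Pex11a, the gene of peroxisome elongation and division, was highest in islets with both the PPARγ virus and the compound. Probe set 1379361_at read 48.8, 65.2 and 73.1 in null virus with vehicle and 78.9, 56.1 and 68.8 in null virus with compound. It read 91.9, 78.5, 98.2 and 74.2 in PPARγ virus with vehicle and 184.4, 154.2, 187.0 and 130.7 in PPARγ virus with compound. The lowest array with virus and compound lay above every array of the other groups. Among the rest, null virus with compound overlapped both of its neighbours in the order of means, and the PPARγ virus vehicle arrays all lay above the null virus vehicle arrays. The doubly labelled array, at 74.4, would close that last gap if it belonged to vehicle. Group means ± SD were 62.4 ± 12.4 (n = 3), 67.9 ± 11.4 (n = 3), 85.7 ± 11.2 (n = 4) and 164.1 ± 26.8 (n = 4) in the same order.

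Tests were run with limma on log2(value + 4.6) over 10078 probe sets, with Benjamini-Hochberg adjustment over all of them and a threshold of 0.05. Fold changes are on this scale, which understates changes of low intensities. In bulk islet RNA, more cells of a type and more RNA per cell cannot be told apart. Pex11a was 2.52-fold higher with virus and compound than with null virus and vehicle, the combined effect (log2 change 1.34 ± 0.17 SE, limma adjusted p = 0.00137). The virus effect in compound was 2.32-fold (log2 1.22 ± 0.17, limma adjusted p = 0.00324). Without the PPARγ virus arrays numbered 2 and 4, which were low in the summed non-beta hormone markers, the combined log2 change of Pex11a was 1.52 (limma adjusted p = 0.00297). The virus effect in vehicle was 0.44 ± 0.17 on the log2 scale and did not pass (limma adjusted p = 0.950).

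The second probe set of Pex11a, 1387740_at, stayed at or under 23.0 on every array, below the intensity of 39.3 that a probe set had to exceed in at least 4 arrays to be tested. Its values were 7.3 to 14.6 in null virus vehicle, 7.3 to 12.4 in null virus compound, 9.8 to 15.9 in PPARγ virus vehicle and 9.0 to 23.0 in PPARγ virus compound. All 4 groups overlapped, and without the filter its combined log2 change was 0.16 ± 0.26 (limma adjusted p = 0.935). Its virus effect in compound was 0.44 ± 0.26. At this intensity a change would hardly be seen, so the change of Pex11a rests on 1 probe set.

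**Figure D1:**
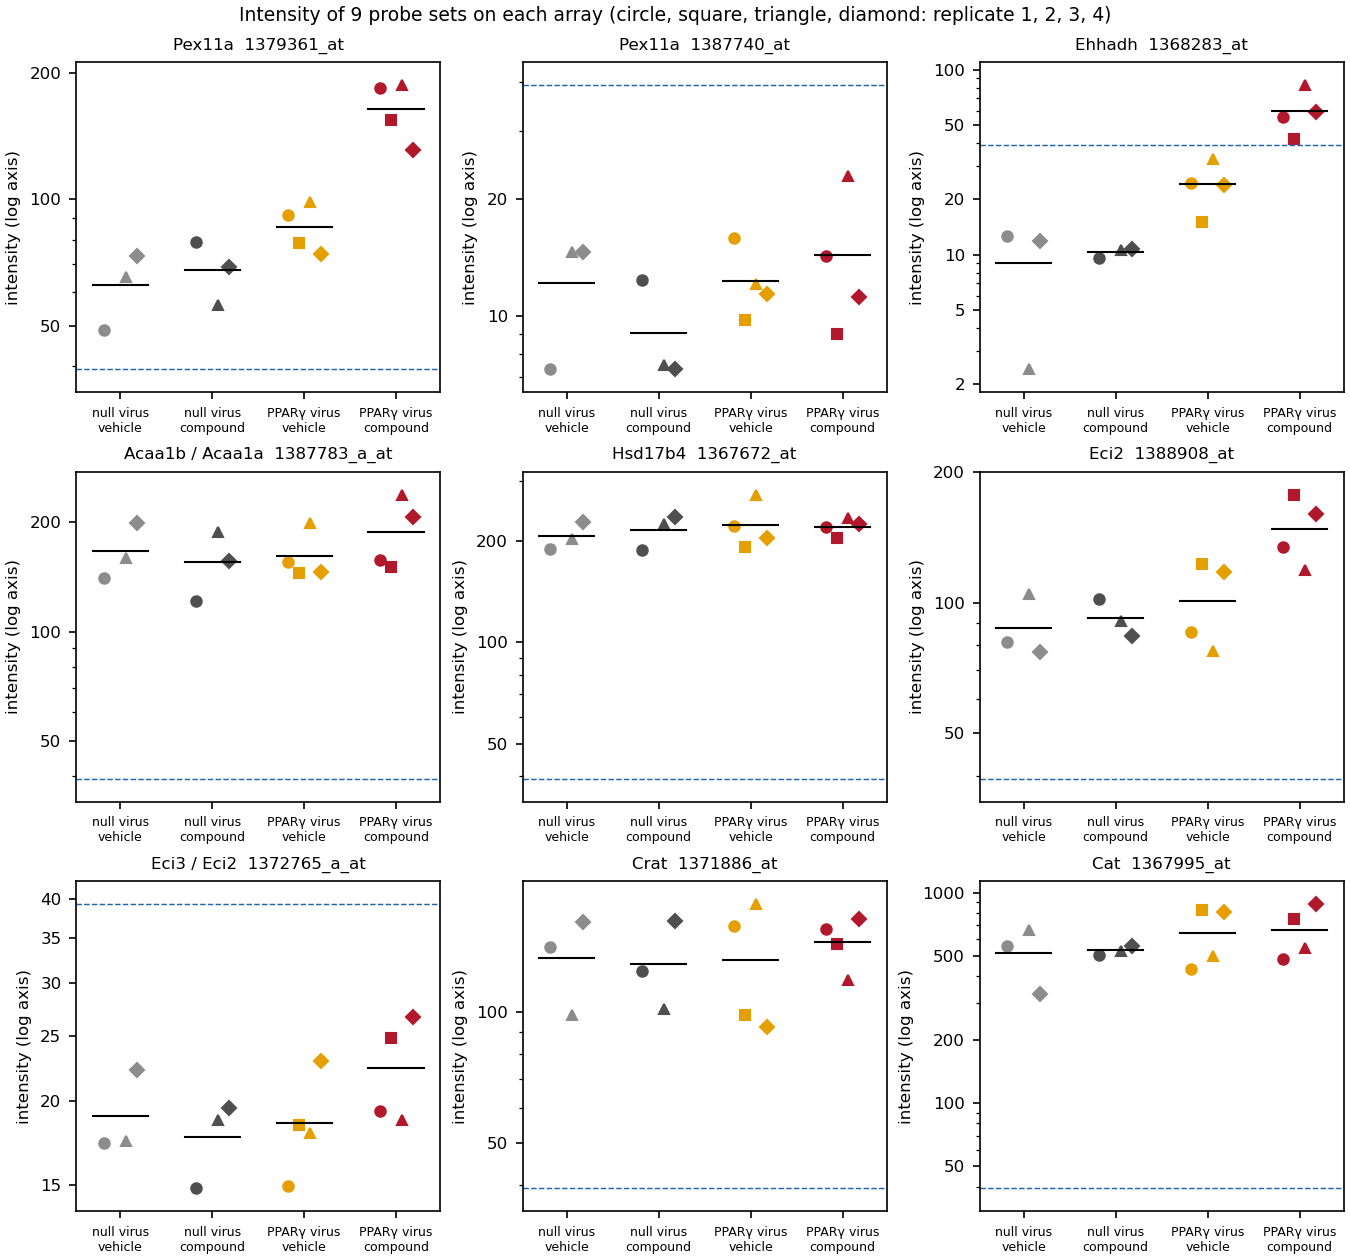
Intensity (log axis) of the 9 probe sets on the 14 arrays by group, with 1 point per array, shapes for replicate numbers and bars for group means. The dashed line is the intensity of 39.3 used as the limit for testing. Pex11a 1379361_at and Ehhadh lie highest in the 4 arrays with PPARγ virus and compound, while the groups of Hsd17b4, Crat and Cat overlap.

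Ehhadh, which encodes the bifunctional enzyme of the straight-chain peroxisomal pathway, had the largest combined change of the 7 genes. Its probe set 1368283_at read 12.6, 2.4 and 11.9 in null virus with vehicle, and 9.6, 10.6 and 10.7 in null virus with compound. It read 24.3, 15.0, 32.7 and 23.9 in PPARγ virus with vehicle, and 55.4, 42.4, 82.6 and 59.4 in PPARγ virus with compound. The null virus groups overlapped, the PPARγ virus vehicle arrays lay above both, and the PPARγ virus compound arrays lay above all the rest. The doubly labelled array read 11.8, inside the null virus range.

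Ehhadh was above the limit for testing in the 4 arrays with virus and compound alone, so it entered the test through the group in which it was high. The combined effect was 5.01-fold (log2 2.32 ± 0.33 SE, limma adjusted p = 0.00284) and the virus effect in compound 4.23-fold (log2 2.08 ± 0.33, limma adjusted p = 0.00641). With the filter removed, the combined effect was called as well (limma adjusted p = 0.00309). Because the null virus values were near the added constant, the size depended on that constant: the combined log2 change was 2.82 with a constant of 1 and 1.46 with 20, both past the threshold. The virus effect in vehicle was 1.15 ± 0.33 (limma adjusted p = 0.530), and did not pass although the groups did not overlap.

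Eci2, the peroxisomal enoyl-CoA isomerase, followed the same order of groups with a smaller difference that did not pass the test. Probe set 1388908_at read 81.2, 104.9 and 76.9 in null virus with vehicle, 101.9, 90.7 and 83.6 in null virus with compound, and 85.7, 122.8, 77.4 and 117.8 in PPARγ virus with vehicle. In PPARγ virus with compound it read 134.1, 177.4, 118.6 and 159.7, above both null virus groups, with the lowest array inside the range of PPARγ virus with vehicle. The combined log2 change was 0.72 ± 0.18 (1.64-fold, limma adjusted p = 0.127) and the virus effect in compound 0.64 ± 0.18 (limma adjusted p = 0.171). The shared Eci3 and Eci2 probe set read 14.8 to 22.9 in the other 3 groups and 19.3, 24.8, 18.7 and 26.7 in PPARγ virus with compound. It was too low to be tested, and its groups overlapped.

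The other bifunctional enzyme and the thiolase did not pass in any contrast. Hsd17b4, which serves very long chain and branched substrates, read 189.0 to 226.7 in null virus vehicle, 187.4 to 234.9 in null virus compound, 191.3 to 274.2 in PPARγ virus vehicle and 204.1 to 233.2 in PPARγ virus compound. All of its groups overlapped, and its combined log2 change was 0.10 with a 95% confidence interval from -0.19 to 0.38. The Acaa1b and Acaa1a probe set read 140.5 to 199.4, 121.7 to 187.6, 144.6 to 198.6 and 150.3 to 238.6 in the same order. Its combined log2 change was 0.16, with an interval from -0.25 to 0.57. The interval of Ehhadh, 1.62 to 3.03, lay above both. However, Ehhadh entered the test through the group in which it was high, and the size of its change depended on the added constant. No difference between genes is therefore read from these intervals, and none was tested.

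Catalase passed in no contrast, and its values under the PPARγ virus followed the replicate number in both vehicle and compound. Cat 1367995_at read 557.3, 666.4 and 330.9 in null virus with vehicle and 505.9, 527.4 and 559.4 in null virus with compound. In PPARγ virus with vehicle it read 434.4, 830.1, 499.3 and 812.4 for replicates 1 to 4, and in PPARγ virus with compound 482.6, 750.8, 547.6 and 882.9. Replicates 2 and 4 of the PPARγ virus were the highest 4 of the 14 arrays, and they are the arrays in which the non-beta hormone markers summed lowest. The combined log2 change was 0.38 ± 0.27 (limma adjusted p = 0.80). Without those numbers it was 0.05, and the virus effect in vehicle moved from 0.31 to -0.09.

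Eci2 was also highest within each PPARγ virus group in replicates 2 and 4. Without them its combined log2 change was 0.51 (limma adjusted p = 0.249), and its virus effect in vehicle moved from 0.18 to -0.09. Pex11a ran the other way, with higher values in replicates 1 and 3 than in 2 and 4 of both PPARγ virus groups. Ehhadh without those numbers had a combined log2 change of 2.52 (limma adjusted p = 0.0183). The part of the non-beta hormone cells in the values of Cat and Eci2 was not tested.

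**Figure D2:**
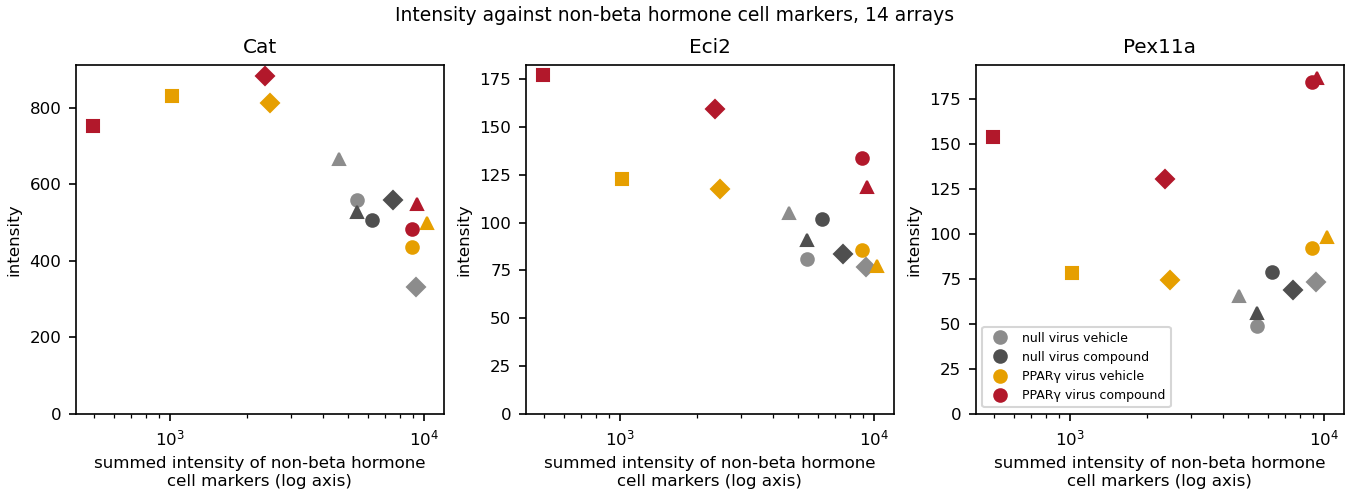
Intensity of Cat, Eci2 and Pex11a (linear axis from 0) against the summed intensity of non-beta hormone cell markers (log axis), with 1 point per array, colours for groups and shapes for replicate numbers. The 4 arrays with sums of 495 to 2479 hold the 4 highest Cat values, from 750.8 to 882.9.

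Crat showed no order of groups. Probe set 1371886_at read 140.6, 98.0 and 160.5 in null virus with vehicle, 124.2, 101.5 and 161.0 in null virus with compound, 157.3, 98.2, 176.5 and 92.1 in PPARγ virus with vehicle, and 154.3, 142.6, 118.1 and 163.2 in PPARγ virus with compound. All of these ranges overlapped, and the combined log2 change was 0.13 with a 95% confidence interval from -0.37 to 0.64. The interval leaves room for a change of moderate size in either direction. In PPARγ virus with vehicle, Crat was higher in replicates 1 and 3 (157.3 and 176.5) than in 2 and 4 (98.2 and 92.1). With compound it did not split in that way.

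Across the set, 2 of the 7 tested probe sets were called in the combined contrast (Pex11a and Ehhadh, both higher), beside 0.665% of all tested probe sets (67, of which 61 were higher). The same pair was called for the virus effect in compound, beside 0.705% (71, of which 64 were higher). For the virus effect in vehicle none of the 7 was called, beside 0.0397% of all (4), and 2 had an unadjusted limma p under 0.05, beside 4.43% of all (446). Groups did not overlap, with the PPARγ virus higher, for Pex11a and Ehhadh in vehicle (2.45% of all tested probe sets), and for these and Eci2 in compound (4.56%) and in the combined contrast (4.06%). The combined effect and the virus effect in compound share the 4 arrays of PPARγ virus with compound, in which both genes were highest, and the combined and vehicle contrasts share the null virus vehicle arrays, so these counts are not independent. The median combined log2 change over the 7 was 0.38, beside -0.03 over all tested probe sets. Ehhadh entered these counts and this median through the filter described above, by the group in which it was high. The 7 genes were also chosen with earlier results of these data known, so nothing is read from the set as a whole. Pex11a passed the filter on every array, but it was chosen in the same way as the rest.

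**Figure D3:**
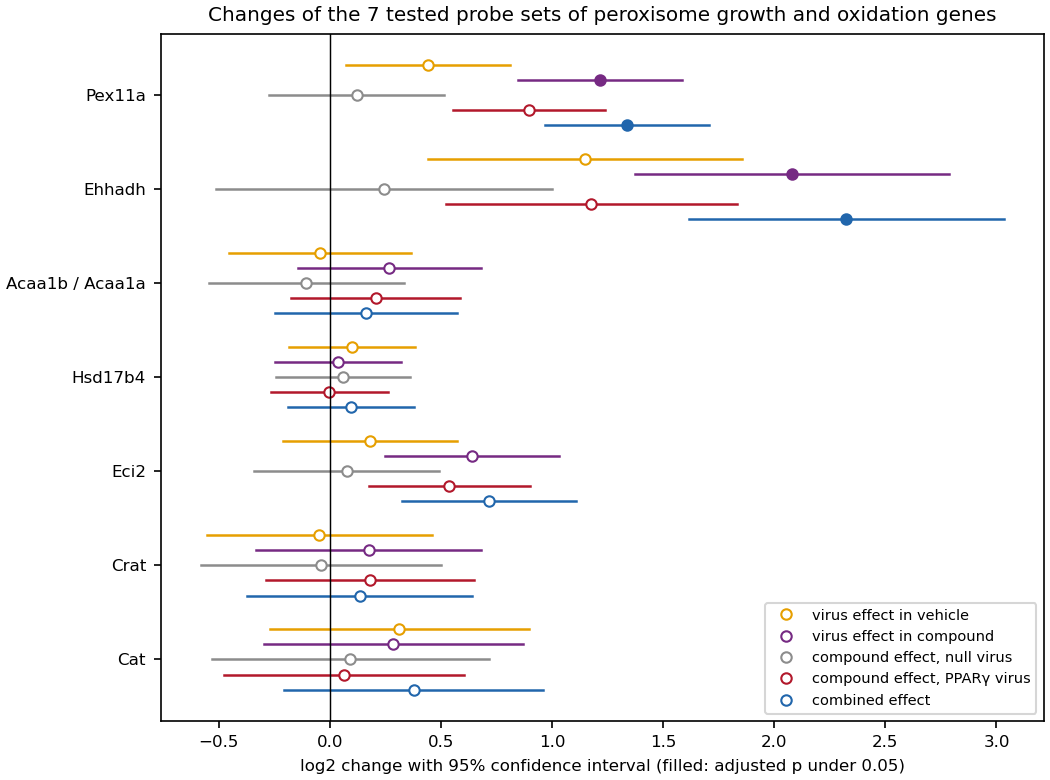
Log2 changes with 95% confidence intervals from limma for the 7 tested probe sets in 5 contrasts, with filled points for an adjusted p under 0.05. Filled points occur for Pex11a and Ehhadh alone, at 1.34 and 2.32 in the combined contrast.

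Under the null virus, with the receptor of the islets alone, none of the 7 probe sets differed between compound and vehicle beyond the spread of the arrays. No probe set of the array passed (0% of 10078, with 95 at an unadjusted limma p under 0.05), and none of the 7 had an unadjusted p under 0.05. The log2 change of Pex11a was 0.12, with a 95% confidence interval from -0.27 to 0.52, and that of Ehhadh was 0.24, from -0.51 to 1.00. In pairs of the same replicate number, Pex11a was higher with compound in 1 of 3 and Ehhadh in 1 of 3, the latter in replicate 3, whose vehicle array read 2.4. With the replicate number as a block the count of called probe sets was also 0 (0%).

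Under the PPARγ virus, the compound arrays read higher than the vehicle arrays of the same number in 4 of 4 pairs for Ehhadh, Pex11a and Eci2. The log2 differences within pairs were 1.05 to 1.26 for Ehhadh, 0.78 to 0.97 for Pex11a and 0.42 to 0.62 for Eci2. They were 0.02 to 0.49 for the Acaa1b and Acaa1a probe set and 0.05 to 0.35 for the Eci3 and Eci2 probe set, also higher in 4 of 4. An exact two-sided permutation test of signs cannot go below 0.125 with 4 pairs, and that was its p for each of these 5. Cat was higher in 3 of 4 pairs, Crat and Hsd17b4 in 2 of 4, and the low Pex11a probe set in 1 of 4. The share of all tested probe sets that were higher in 4 of 4 pairs was not counted. Nothing is therefore read from the number of these probe sets that were.

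**Figure D4:**
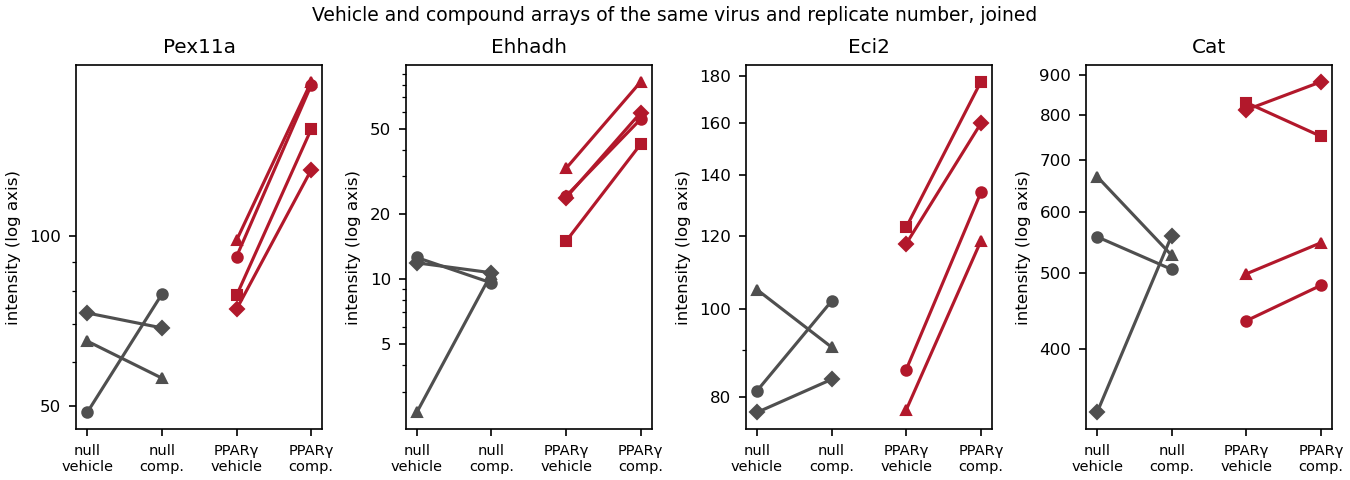
Intensity (log axis) of Pex11a (1379361_at), Ehhadh, Eci2 (1388908_at) and Cat in vehicle and compound arrays, with a line for each pair of the same virus and replicate number. All 4 PPARγ virus lines rise for Pex11a, Ehhadh and Eci2, and the 3 null virus lines run in both directions.

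In the fit without pairing, the compound effect under the PPARγ virus was 0.90 ± 0.16 on the log2 scale for Pex11a (1.86-fold, limma adjusted p = 0.0774), 1.18 ± 0.31 for Ehhadh (limma adjusted p = 0.668) and 0.54 ± 0.17 for Eci2 (limma adjusted p = 1.00). None of the 7 passed, beside 0.0595% of all tested probe sets (6), and 3 of the 7 had an unadjusted p under 0.05, beside 2.93% of all (295). Ehhadh, among these 3, entered the test through the compound arrays of this contrast alone, in which it was high. With the replicate number within each virus as a block, Pex11a passed (log2 0.90 ± 0.13, limma adjusted p = 0.0124), while Ehhadh (limma adjusted p = 0.0666) and Eci2 (limma adjusted p = 0.0549) did not. That fit called 0.397% of all tested probe sets (40, of which 36 were higher). Under the PPARγ virus, Pex11a and Ehhadh were higher with compound without overlap, as was so for 0.645% of all tested probe sets. The limit given for Ehhadh holds here too.

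Of the controls of RNA integrity, the ratio of 3′ to 5′ signal of beta-actin was higher in compound than in vehicle in 4 of 4 PPARγ virus pairs (log2 difference 0.05 to 0.58) and in 3 of 3 null virus pairs (0.23 to 0.58), in which Pex11a and Ehhadh were each higher in 1 of 3. The same ratio of Gapdh was higher with compound in 3 of 4 PPARγ virus pairs (-0.59 to 0.16, mean -0.07) and in 1 of 3 null virus pairs. The beta-actin ratio was 7.58 to 14.9 over the arrays used and the Gapdh ratio 8.36 or more, so 3′ signal was well above 5′ signal on every array. Null virus compound replicate 3 stood apart with a Gapdh ratio of 18.9, against 8.36 to 12.6 in the other arrays. Without that array the virus effect in compound had a limma adjusted p of 0.0302 for Pex11a and 0.0347 for Ehhadh. Summed adipocyte markers (3 of 6 listed genes on the array, none high enough to be tested) ranged from 44.3 to 52.0 in PPARγ virus with compound, above 34.3 to 38.6 in null virus with vehicle, 29.5 to 40.7 in null virus with compound and 33.2 to 42.6 in PPARγ virus with vehicle. Several adipocyte markers are also PPARγ targets. Over all arrays Cfd stayed between 16.0 and 38.1, Plin1 stayed between 9.8 and 20.4 and Lep between 0.9 and 3.7. Summed markers of beta cell, acinar, duct, endothelial and stromal, leukocyte and hepatocyte genes overlapped among all 4 groups. None of the 6 tested beta cell markers was higher in the combined contrast (median log2 -0.08, beside -0.03 over all tested probe sets). The same held for the virus effect in compound (median log2 -0.04), and none passed in either. Pdx1 had a combined log2 change of -0.67 ± 0.16 (limma adjusted p = 0.0904). Single genes of these lists did not all follow the sums. Krt19, a keratin of duct cells, read 72.2 to 141.5 in null virus with vehicle, 66.5 to 138.7 in null virus with compound, 114.7 to 210.0 in PPARγ virus with vehicle and 205.0 to 296.1 in PPARγ virus with compound. It was called in the same contrasts as Pex11a and Ehhadh, the combined effect (log2 1.30 ± 0.27, limma adjusted p = 0.0391) and the virus effect in compound (1.36 ± 0.27, limma adjusted p = 0.0284), and was the 1 of 5 tested duct markers to pass. In the combined contrast the other tested duct markers changed by 0.38 (Krt18), 0.13 (Krt7), -0.03 (Krt8) and -0.52 (Spp1). The 3 tested hepatocyte markers were all higher in the virus effect in compound (median log2 0.41), and none passed. In the combined contrast and in the virus effect in vehicle 2 of the 3 were higher, and Apoc3 was lower (-0.18 and -0.20). The part of these measures in the changes of Pex11a and Ehhadh was not tested.

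Whether the compound acted differently under the PPARγ virus than under the null virus was asked by the interaction term. The difference was 0.78 ± 0.24 on the log2 scale for Pex11a (limma adjusted p = 1.00, unadjusted p = 0.00657), 0.93 ± 0.47 for Ehhadh and 0.46 ± 0.26 for Eci2. No probe set of the array passed (0% of 10078, with 143 at an unadjusted p under 0.05). With the replicate block 5 passed over the array, none of them among the 7, and Pex11a had a limma adjusted p of 0.451. In that fit 3 of the 7 had an unadjusted limma p under 0.05, beside 585 of 10078 probe sets. They were Pex11a (0.00242), Eci2 (0.0120) and Ehhadh (0.0236), the last tested through the filter described above. A different response under the 2 viruses was therefore not established for any of these genes.

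The wider peroxisome was described by 3 lists that leave out the 7 genes. Of 15 other peroxins, the factors that assemble the membrane and import matrix proteins, 8 had a probe set and 7 were tested. None passed in any contrast, and 2 of the 7 had an unadjusted limma p under 0.05 in the combined contrast, beside 8.48% of all tested probe sets (855). Their median combined log2 change was -0.04, beside -0.03 over all tested probe sets. Pex19, a chaperone and receptor for peroxisomal membrane proteins, read 73.7 to 97.5 in null virus with vehicle and 103.4 to 139.6 in PPARγ virus with compound, without overlap (log2 0.59 ± 0.14, limma adjusted p = 0.0960). Pex3, its docking partner on the membrane, had a combined log2 change of 0.30 ± 0.13 and Pex13, a component of the import pore, one of 0.20 ± 0.10, and neither passed.

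Of 22 other genes of peroxisomal fatty acid entry, oxidation and export, 16 had a probe set and 12 were tested. None passed in any contrast, and 2 of the 12 had an unadjusted p under 0.05 in the combined contrast, beside the same 8.48%. Their median combined log2 change was 0.10. Pecr, a trans-2-enoyl-CoA reductase, had a combined log2 change of 0.32 ± 0.11 (limma adjusted p = 0.331), Crot, carnitine octanoyltransferase, which exports shortened acyl groups, 0.50 ± 0.21, and Nudt7, a CoA diphosphatase, 0.26 ± 0.13.

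Of 24 other peroxisomal genes (oxidases, antioxidant enzymes, ether lipid synthesis, membrane and fission proteins), 18 had a probe set and 16 were tested, with a median combined log2 change of 0.05. Agps, which makes the ether bond of plasmalogens, was the 1 gene that passed, and 5 of the 16 had an unadjusted p under 0.05 in the combined contrast, again beside 8.48%. Agps read 6.7, 19.4 and 6.8 in null virus with vehicle, 7.3, 19.1 and 12.6 in null virus with compound, 27.7, 63.5, 16.4 and 38.4 in PPARγ virus with vehicle and 51.8, 101.6, 48.4 and 83.7 in PPARγ virus with compound. The combined log2 change was 2.32 ± 0.41 (limma adjusted p = 0.0130) and the virus effect in compound 2.10 ± 0.41 (limma adjusted p = 0.0268). Every null virus array used read 19.4 or less, under the limit of 39.3 for testing. Agps thus entered the test, and the counts above, through PPARγ virus arrays alone, in which it was high. The doubly labelled array read 49.3 for Agps, inside the range of PPARγ virus with compound. With that array kept under both null virus labels the combined effect did not pass (log2 1.85, limma adjusted p = 0.145).

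Agps was also highest in PPARγ virus replicates 2 and 4, as Cat was. Without those numbers its combined log2 change was 1.91 (limma adjusted p = 0.0827). Its combined call was also lost without null virus vehicle replicate 1 (limma adjusted p = 0.0905) or 4 (0.0932), or PPARγ virus compound replicate 4 (0.0543), and with the double array as null virus vehicle (0.103). The virus effect in compound was lost in 14 of 39 alternatives (limma adjusted p up to 0.184). These include leaving out null virus compound replicate 1, 3 or 4, PPARγ virus compound replicate 2 or 4, or PPARγ virus numbers 2 and 4 together, and keeping the double array under either label or both. Leaving out an array was run with the filter applied anew and again with the same probe sets, so the 14 count some arrays more than once. The other named genes of this list did not pass: Lonp2, the peroxisomal protease, had a combined log2 change of 0.77 ± 0.21 (limma adjusted p = 0.177), and Idh1, the cytosolic and peroxisomal isocitrate dehydrogenase, 0.61 ± 0.17 (limma adjusted p = 0.189).

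**Figure D5:**
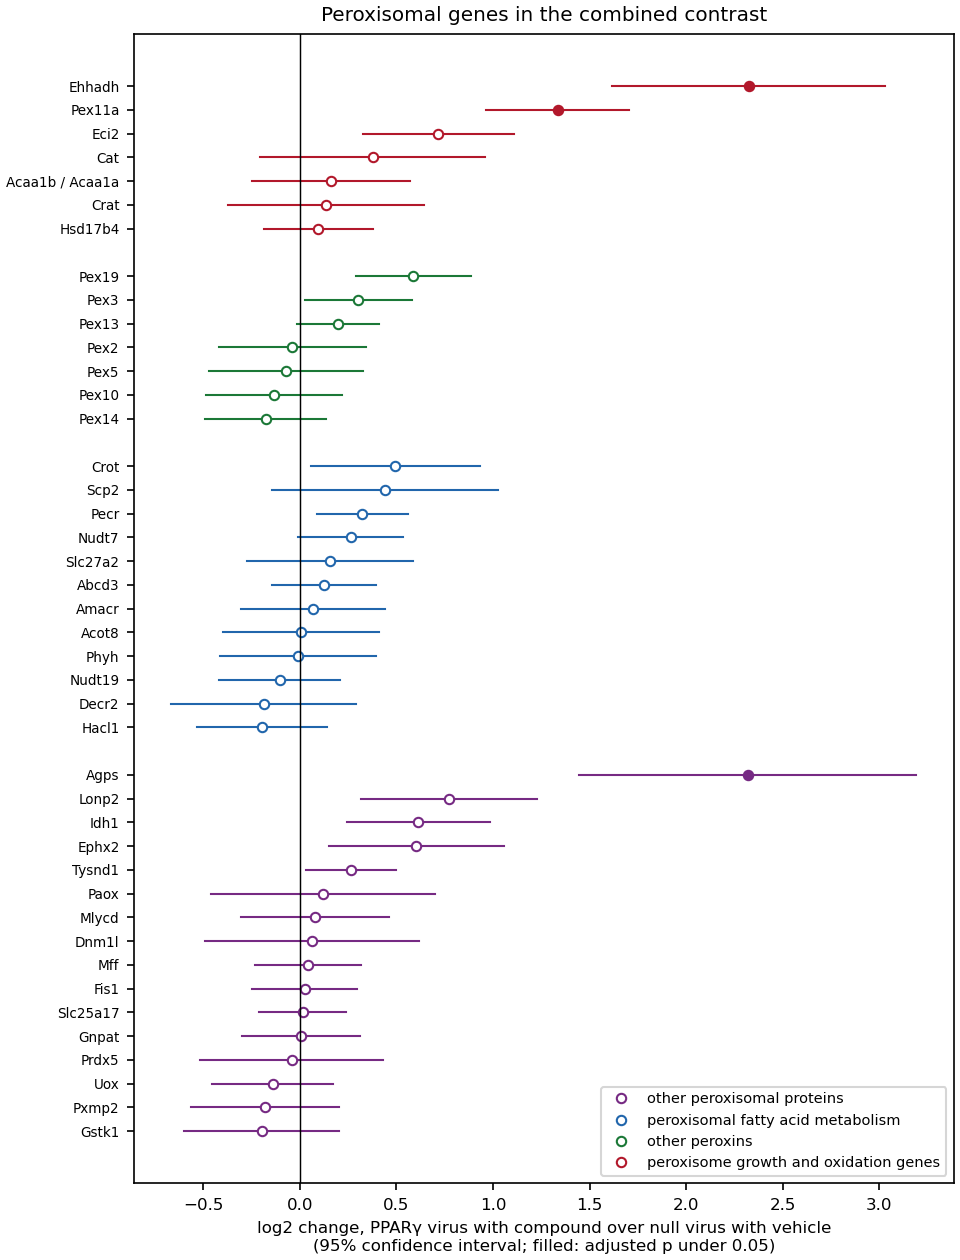
Combined log2 change with 95% confidence interval from limma for the 7 tested probe sets and for the tested genes of 3 peroxisomal lists (7 other peroxins, 12 of fatty acid metabolism, 16 others), with filled points for an adjusted p under 0.05. Ehhadh, Pex11a and Agps are filled, and the peroxins lie on both sides of 0.

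The genes whose pattern over the 14 arrays lay nearest to that of Ehhadh, by root mean square distance between centred log2 values, were Ang (0.39), Dhrs3 (0.49) and Mgst1 (0.49). Ang, a secreted ribonuclease, rose from 20.2 ± 4.1 (SD, n = 3) in null virus with vehicle to 132.1 ± 56.1 (SD, n = 4) in PPARγ virus with compound (limma adjusted p = 0.00284). Nearest to Pex11a were Lgals9 (0.25), Dhrs3 (0.28) and C8h15orf39 (0.28). Dhrs3, a short-chain reductase that acts on retinal, was near both, with 53.3 ± 2.9 (SD, n = 3) against 147.0 ± 26.6 (SD, n = 4) in those groups (limma adjusted p = 0.00476). Lgals9 did not pass in the combined contrast (limma adjusted p = 0.173). The distances were taken over the same arrays and groups in which Ehhadh and Pex11a changed. The adjusted p-values of these neighbours follow in part from that choice and are no separate support. In the null virus arrays Ang read at most 29.3 and Lgals9 at most 31.5, under the limit of 39.3 for testing. Both thus entered the test through PPARγ virus arrays alone.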

How the data were processed

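Per the file itself, the authors deposited 1 intensity per probe set and array on a linear scale; each column had been scaled to a mean of 150.0 after trimming 2% at each end. The array software is not given in the sources used here. Values were used as deposited, and log2 of the deposited intensity plus 4.6 (the 10th percentile of positive values) was analysed. Probe sets were tested where intensity exceeded 39.3 (40th percentile) in at least 4 arrays, without the 57 controls. Of 10078 tested, 8493 named 1 gene, 230 several and 1355 none. The number of arrays limits precision.

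limma 3.58.1 (R 4.3.3) fitted 1 mean per group over 14 arrays with trended empirical Bayes, and was tested on simulated data. The 4 contrasts of virus or compound, the combined effect and the interaction were taken. Replicate numbers paired arrays within each virus. Deviations of arrays from their group means were correlated across probe sets. In all 7 vehicle and compound pairs of the same virus and number r was 0.45 to 0.70. For the same virus and different numbers it was -0.55 to 0.33. Across viruses it was -0.14 to 0.43 for the same number, with 0.30 to 0.43 for number 1, and -0.40 to 0.34 for different numbers. The source of this pairing is the data, since the labels give the numbers alone. The fit without the block is the main one. A list gene was represented by its tested probe set with the highest mean. Genes named are the 7 members, list genes past the threshold or with the 3 smallest p in the combined contrast, the 3 nearest patterns of each called member, and Pparg. Members and lists were chosen with earlier results of these data known. Promoters came from RefSeq (GRCr8). Figures used Python 3.11.15 and matplotlib 3.10.9.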

Additional observations from a re-analysis of the deposited data

How the results depend on the processing

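Pex11a stayed called in the combined contrast under all 40 alternatives run (log2 1.16 to 1.52, limma adjusted p up to 0.0123), and Ehhadh under all 35 that tested it (1.46 to 2.82, up to 0.0226). The alternatives overlap, since each array was left out with the filter applied anew and again with the same probe sets. Ehhadh was not tested with the filter at the table's median, where 1 of the 7 genes' probe sets was called in the combined contrast and 1 for the virus effect in compound, nor when a PPARγ virus compound array was left out and the filter applied anew; leaving out replicates gave 1 to 2 called in both contrasts. The compound effect under the PPARγ virus had 1 called (Pex11a, adjusted p from 0.0124 to 0.0478) with quantile normalization, with all 16 columns, with the double array as null virus compound, and with the replicate block within each virus. Fitting only the groups compared, the calls over all probe sets were 1 for the virus effect in vehicle, 43 in compound, 2 for the compound effect under the PPARγ virus and 42 combined. With a replicate block over all groups they were 34, 211, 14 and 177, with 3 for the interaction; with the block within each virus they were 40 for the compound effect under the PPARγ virus and 5 for the interaction, and the block changed no other call of the 7 genes. Without PPARγ virus numbers 2 and 4 (chosen after seeing the data) they were 15 for the virus effect in vehicle and 2 for the compound effect under the PPARγ virus. Leaving out replicates in turn gave 3 to 7 for the virus effect in vehicle, 31 to 75 for the virus effect in compound, 2 to 7 for the compound effect under the PPARγ virus and 39 to 73 combined. Other peroxisomal genes called in the combined contrast numbered 0 to 3 over the alternatives, against 1. The cause of these changes was not tested. Low intensity limited Ehhadh, Agps and the second Pex11a and shared Eci2 probe sets.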
